A study of Drosophila melanogaster with 3 samples.

Results

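The genes described here are 8 signals of the fly's energy economy: the adipokinetic hormone Akh, its receptor AkhR, the peptide CCHa2 and its receptor CCHa2-R, and the secreted proteins upd2, egr, daw and NLaz. They were taken by their symbols, and 8 of 8 were found among the 16509 genes counted. RNA was counted in 3 libraries, 1 for each genotype, and each genotype carried Dcg-Gal4, a driver that the study uses to direct transgenes to the larval fat body. Dcg/+ carried the driver without a target transgene (the control). Dcg > Hpo also overexpressed Hpo, the Hippo kinase (the overexpression library), and Dcg > Hpo-RNAi carried an RNAi transgene against it (the knockdown library). The labels name larval fat tissue, and the study describes fat bodies pooled from larvae of the third instar, but the labels' text on RNA extraction speaks of 30 adult heads. With 1 library for each genotype the genotypes could not be tested against each other, and every ratio below describes these libraries.

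Akh is made by the neurosecretory cells of the corpora cardiaca, a part of the ring gland beside the larval brain, and it plays a role like that of glucagon in mammals. It acts on fat body cells through AkhR, a G protein-coupled receptor, and releases stored fat and sugar into the blood. The fat body in turn reports the state of the stores to other organs: CCHa2 acts on the insulin-producing cells of the brain through CCHa2-R, upd2 is a cytokine of the JAK-STAT pathway that acts in a leptin-like way, egr is the fly tumor necrosis factor, daw is a ligand of the activin branch of TGF-beta signalling, and NLaz is a secreted lipocalin that lowers insulin signalling and is induced by JNK.

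The study designed oligonucleotides against Akh mRNA, and their sequences are shown because they identify the transcript that it followed beyond these libraries. The first pair are its RT-qPCR primers, and the other 3 carry biotin and were made to pull down Akh mRNA. All are written 5′ to 3′.
Akh RT-qPCR forward primer: gcgaagtcctcattgcagccgtg
Akh RT-qPCR reverse primer: accgaacgcttgccccaatcc
Akh pull-down oligonucleotide 1: acgatgtctagcacgcacac
Akh pull-down oligonucleotide 2: gaatcgaagtggaccagcat
Akh pull-down oligonucleotide 3: agctggtcctggaacctttt
The pull-down oligonucleotides are 20 bases long and the primers 23 and 21. Their places within the gene were not mapped here.

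The libraries held 21918672 counts in the control, 23227940 in the overexpression library and 23524682 in the knockdown library. A level below is given as CPM, the share of the library total scaled to 1e6 counts, with an exact Poisson 95% interval. A ratio is that of 2 such shares, with an exact 95% interval (Clopper-Pearson) of the split of the counts. Both intervals cover counting error only. Where 3 values follow a gene without further label, they stand for the control, the overexpression library and the knockdown library in this order. A gene counted as measured in a comparison if 1 of its libraries or both reached 10 counts. A measured gene is called higher from a ratio of 2 upward and lower from 0.5 downward, if the interval also leaves out 1. Where a library had 0 counts, the fold was taken against a floor of 3 counts. The exact Poisson interval of a count of 0 reaches somewhat higher, to 3.69 counts.
hpo itself had 289 counts in the control, 11568 in the overexpression library and 182 in the knockdown library, so its levels followed the labels, with ratios to the control of 37.8 (33.6 to 42.6) and 0.587 (0.485 to 0.709). A set of 10 fat body markers, among them the larval serum proteins, were detected in every library and held 18.5% to 19.4% of the counts. The libraries nevertheless differed in markers of other tissues. In the overexpression library, 12 of 12 muscle genes, 10 of 12 neuron genes and 7 of 9 measured genes of gut digestion were called higher than in the control, with the other 2 of gut digestion called lower, and 10 of 10 testis genes were called lower. In the knockdown library, 7 of 8 salivary gland genes were called lower and 0 of 10 testis genes were called in either direction. With 1 library each, the library and the genotype cannot be told apart, and no result can be given without the overexpression library except the comparison of the knockdown library with the control.

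Against the control, the overexpression library had 1 of the 6 measured genes called higher, Akh, and 1 called lower, NLaz. By the same rule 18.2% of 11834 measured genes passed as higher and 22.8% as lower, 41% in all. In the knockdown library, AkhR was called lower and none of the 5 measured genes higher, where 9.09% of 11521 genes were called lower and 7.81% higher, 16.9% in all. Between the overexpression library and the knockdown library directly, Akh was called higher and NLaz lower in the overexpression library among 6 measured genes, beside 19.4% of 11906 genes called higher and 24.3% lower, 43.7% in all. These numbers of calls are near the shares over all genes, and nothing is read from them. CCHa2-R and upd2 had fewer than 10 counts in every library and were not measured.

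**Figure D1:**
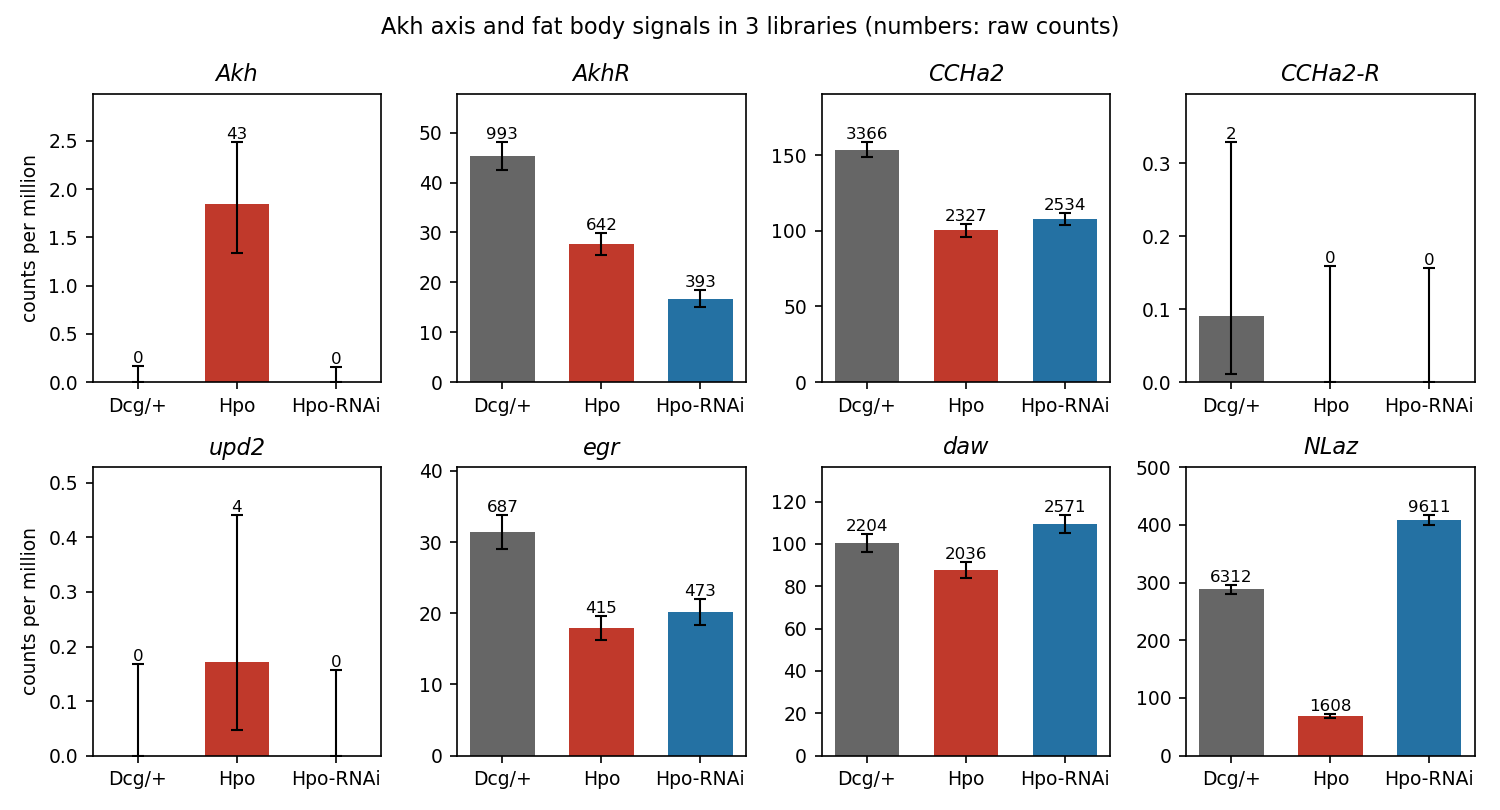
Levels of the 8 genes in CPM, 1 panel per gene, in Dcg/+ (grey), Dcg > Hpo (red) and Dcg > Hpo-RNAi (blue), with exact Poisson 95% intervals and the raw count above each bar. Akh had 43 counts in Dcg > Hpo and 0 in the other libraries, NLaz was lowest in Dcg > Hpo with 1608 counts, and AkhR was lowest in Dcg > Hpo-RNAi with 393.

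Akh was detected in the overexpression library and in neither of the others. Akh (FBgn0004552) lies on chromosome 3L of dm6, from 4141467 to 4142070 on the plus strand, and no annotated gene overlaps it. It had 0 counts in the control, 43 in the overexpression library and 0 in the knockdown library. The level in the overexpression library was 1.85 CPM (1.34 to 2.49), and the floor of 3 counts was 0.137 CPM in the control and 0.128 CPM in the knockdown library, where the Poisson intervals of 0 reached 0.168 and 0.157 CPM. Set against that floor, Akh was at least 13.5-fold higher in the overexpression library than in the control and at least 14.5-fold higher than in the knockdown. The exact interval of the split, which also covers the counting error of the 43 counts, began lower, at 10.5-fold and 11.3-fold. The values against the floor ranged from 11.97 to 13.5 and from 13.7 to 14.9 over 5 scalings.
The genes nearest to Akh in level over the 3 libraries included other peptide hormone genes. The search matched levels, so genes at 0 in the same libraries but with more counts, such as Ilp2 and phm, were not among them. The 5 genes closest to Akh, by the largest difference in log2 level over the 3 libraries, were CG42392, Eh, CG33462, CG18417 and FMRFa, which had 39 to 42 counts in the overexpression library and 0 in both other libraries. Eh encodes eclosion hormone and FMRFa a precursor of FMRFamide-related neuropeptides, both made by neurosecretory cells. Akh was 1 of 105 genes with at least 10 counts in the overexpression library and 0 in the other libraries, and 20 of these had 43 counts or more. In the control 21 genes, and in the knockdown library 30 genes, had at least 10 counts where both other libraries had 0.
Crz, which encodes corazonin, a peptide related to Akh, had 5 counts in the control, 53 in the overexpression library and 0 in the knockdown library. It was called higher than the control in the overexpression library, at a ratio with an interval of 4.03 to 32.1. Its receptor gene CrzR, a relative of AkhR, had 17, 25 and 0 counts. Corazonin is made by neurons of the brain and ventral nerve cord.

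Of 9 corpora cardiaca genes, which encode a transcription factor and a hormone of these cells and the machinery that processes and releases peptides, 4 were called higher and 0 lower against the control, and 1 of 8 measured was called lower in the knockdown library. The shares over all measured genes were 18.2% higher and 22.8% lower in the former comparison, and 9.09% lower in the latter. The 4 were amon (a prohormone convertase, with 15, 38 and 2 counts in the control, the overexpression library and the knockdown library), Pal2 (a peptide-amidating lyase, 5, 16 and 13, not called with TMM or median-of-ratios scaling), 7B2 (a chaperone of the convertase, 134, 492 and 252) and Caps (a protein of dense-core vesicle release, 15, 121 and 23). These genes also serve other peptidergic cells.
Of the genes that define the corpora cardiaca more closely, gl, a zinc finger transcription factor, had 9, 11 and 2 counts. The limostatin gene Lst, listed as CG8317, had 10143, 9654 and 15197, and it made up most of the summed level of the list, which was 628 CPM in the control, 600.3 in the overexpression library and 831 in the knockdown library. Lst was high in the control and the knockdown library, where Akh had 0 counts. The summed level therefore cannot stand for the cells that make Akh. None of the 9 genes was at 0 in any library.
The prothoracic gland, which makes ecdysone, adjoins the corpora cardiaca in the ring gland. Of 8 measured genes of the prothoracic gland and corpora allata, 5 were called higher in the overexpression library and 1 lower, beside the same shares over all genes. The ecdysone synthesis gene spok had 2 counts in the control, 311 in the overexpression library and 0 in the knockdown library, and phm had 0, 172 and 0. jhamt, an enzyme of juvenile hormone synthesis in the corpora allata, had 0, 2 and 0 counts. The summed levels of the 11 genes were 141 to 149 CPM in the 3 libraries, with most of the counts in sro and Npc1a. sro was called lower, with 1954 counts in the control and 689 in the overexpression library.
The insulin genes of the brain's insulin-producing cells were higher in the overexpression library as well. Ilp2 had 0, 196 and 0 counts, Ilp3 had 0, 54 and 0, and Ilp5 had 10, 117 and 8. Ilp1 was at 0 in every library. The summed level of these 4 genes was 0.456 CPM in the control, 15.8 in the overexpression library and 0.340 in the knockdown library. Most neuron markers were higher as well, such as elav, an RNA-binding protein of neurons, with 129, 1540 and 177 counts. Syt1, which held most of the neuron list's counts in the control, went the other way. It had 4454, 2553 and 4143 counts, with a ratio to the control of 0.541 (0.515 to 0.568) in the overexpression library. It was called lower there with TMM, median-of-ratios and quantile scaling but not with library totals. cpx was not called against the control, at 1.30. The summed level of the 12 neuron genes was 263, 353 and 251 CPM, and none was at 0. Some ring gland and brain markers, among them spok, phm, Ilp2, Ilp3 and elav, were therefore called higher along with Akh in the overexpression library. Others did not move with it, since Lst was not called against the control and sro was called lower. gl, with few counts, was not called against the control with library totals, but was called higher with quantile normalization, at 2.71. Like Akh, gl was also called higher in the overexpression library than in the knockdown library. The part of ring gland and brain tissue in the Akh counts was not tested.

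**Figure D2:**
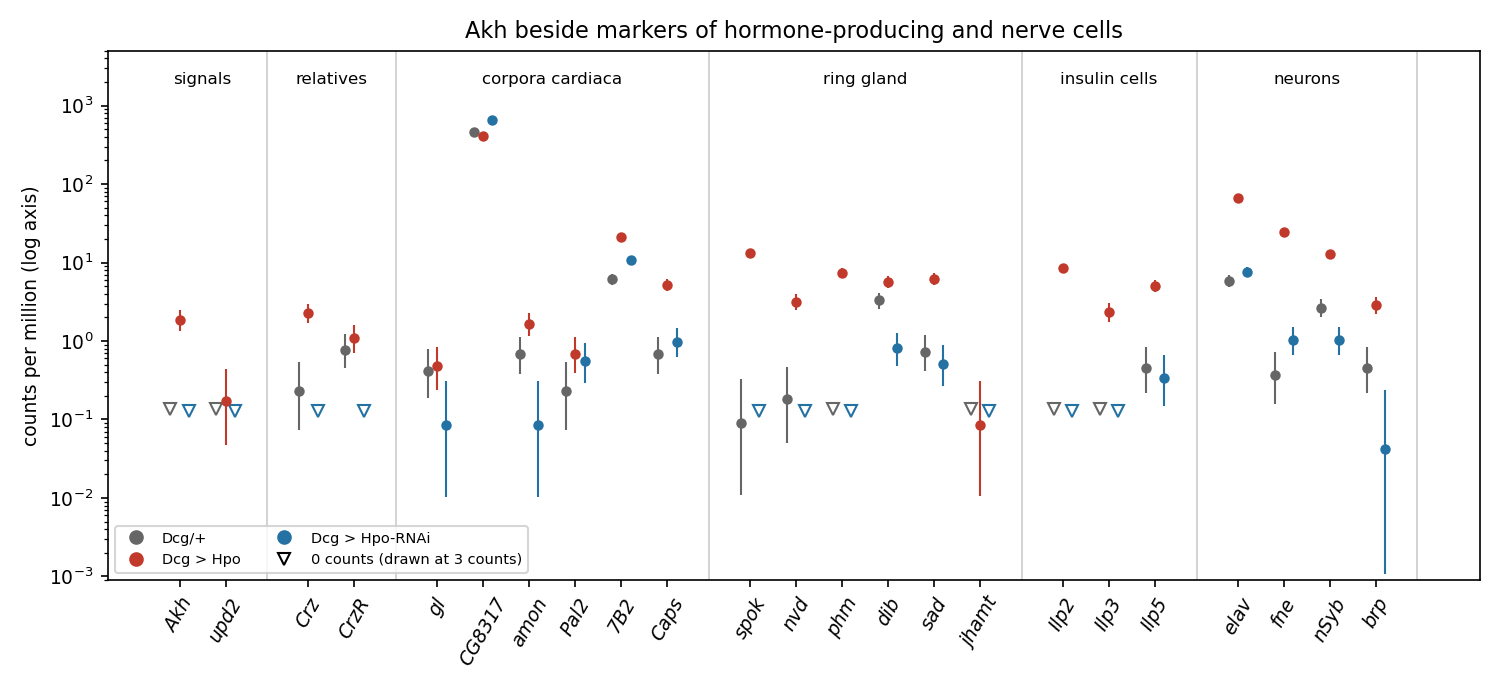
Levels in CPM on a log axis for Akh and upd2, the corazonin genes, and markers of the corpora cardiaca, the ring gland (prothoracic gland and corpora allata), insulin-producing cells and neurons, in Dcg/+ (grey), Dcg > Hpo (red) and Dcg > Hpo-RNAi (blue). Points carry exact Poisson 95% intervals, and open triangles mark 0 counts, drawn at the level of 3 counts. Akh, Ilp2, Ilp3 and phm had counts in Dcg > Hpo and 0 in both other libraries, as did upd2 and jhamt at 4 and 2 counts.

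The receptor did not follow the hormone: AkhR was lower than in the control in both other libraries and lowest in the knockdown library. AkhR (FBgn0025595; chromosome 2L of dm6, 6711286 to 6716186, minus strand) had 993 counts in the control, 642 in the overexpression library and 393 in the knockdown library. These counts were 45.3 CPM (42.5 to 48.2), 27.6 CPM (25.5 to 29.9) and 16.7 CPM (15.1 to 18.4), and the 3 intervals did not overlap. The ratio to the control was 0.610 (0.552 to 0.674) in the overexpression library and 0.369 (0.327 to 0.415) in the knockdown library, of which the latter was called lower. In that comparison 6.27% of the measured genes had a ratio as low or lower. Set against each other, the overexpression library held 1.65 times (1.46 to 1.88) the AkhR level of the knockdown library. A lower share in bulk tissue can come from fewer cells that carry the transcript or from less of it per cell, which cannot be told apart here. The sum of 8 salivary gland genes, none of them at 0, had the same order of libraries, at 5.02%, 2.46% and 0.0678% of the counts. Sgs1 and fkh among them did not have this order, with 1802, 2275 and 26 counts for Sgs1 and 483, 597 and 270 for fkh. The part of salivary gland genes in the AkhR values was not tested.
Relative to the summed counts of the fat body list instead of the library total, the ratios were 0.595 and 0.377. The genes whose levels were closest to those of AkhR over the 3 libraries were CG8550, Pdxk, CG14767, Cp190 and CG12024, with a largest log2 difference of 0.20 to 0.39. Pdxk, named for pyridoxal kinase, had 1066, 583 and 337 counts.

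In insects the receptor couples to G proteins that raise calcium and cyclic AMP. The kinases PKA, Lkb1 and Sik3 and the deacetylase HDAC4 act between this signal and lipase genes. Whether each of them raises or lowers lipase output was not examined here. Of 19 such genes, 2 were higher by the call and 2 lower in the overexpression library, where 41% of all measured genes were called, and 0 in the knockdown library, where 16.9% were. The median log2 ratios were 0.10 and 0.20, beside 0.09 and 0.08 over all measured genes.
The regulatory subunits of PKA, which hold the kinase inactive until cyclic AMP binds, differed from each other. Pka-R1 had 225 counts in the control, 51 in the overexpression library and 289 in the knockdown library, with a ratio of 0.214 (0.155 to 0.291) in the overexpression library. Pka-R2 had 290, 683 and 253 counts, with a ratio of 2.22 (1.93 to 2.56), which was 1.97 with TMM scaling. The catalytic subunit Pka-C1 had 701, 1426 and 862 counts, a ratio of 1.92 (1.75 to 2.10) that did not reach the threshold. CrebB, a transcription factor that PKA activates, had 64, 31 and 82 counts and was called lower in the overexpression library at 0.457 (0.288 to 0.712), or at 0.673 and not called with quantile normalization. norpA, a phospholipase C, was called higher at 2.34 (1.90 to 2.91).
The kinase genes lkb1 and Sik3 and the deacetylase gene HDAC4 were lowest in the overexpression library. Between the overexpression library and the knockdown library they were called lower in the overexpression library, at 0.362 (0.303 to 0.432) for lkb1, 0.445 (0.403 to 0.490) for Sik3 and 0.474 (0.453 to 0.495) for HDAC4. Against the control, lkb1 was at 0.504 (0.416 to 0.608), and it was called lower with each of the other 5 scalings.

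The genes through which Akh releases fat and sugar had 1 of 8 called higher and 2 called lower in the overexpression library, and 0 higher and 1 lower in the knockdown library. Over all measured genes 41% and 16.9% were called. The median log2 ratios were -0.43 and -0.65, beside 0.09 and 0.08 over all measured genes. GlyP, glycogen phosphorylase, had 258 counts in the control, 726 in the overexpression library and 152 in the knockdown library, with ratios to the control of 2.66 (2.30 to 3.07) and 0.549 (0.446 to 0.673). tobi, an alpha-glucosidase gene that responds to Akh and insulin, had 69, 16 and 64 counts and was called lower in the overexpression library at 0.219 (0.119 to 0.381).
Pepck, the gluconeogenic enzyme PEP carboxykinase, had 4630, 2445 and 1488 counts and was called lower in both, at 0.498 (0.474 to 0.523) and 0.299 (0.282 to 0.318). The triglyceride lipase gene bmm had 496, 655 and 341 counts, and its ratio between the overexpression library and the knockdown library was 1.95 (1.70 to 2.22). The lipase gene Hsl had 73, 49 and 63 counts. Lsd-1, a lipid droplet protein through which PKA controls lipolysis, had 11167, 7312 and 7439, with a ratio of 0.618 in the overexpression library and 0.621 in the knockdown library. Tps1, an enzyme of trehalose synthesis, had 2648, 2436 and 1805 counts, with ratios to the control of 0.868 (0.821 to 0.918) and 0.635 (0.598 to 0.675). Pepck and Tps1 had the order of libraries of AkhR, with the control highest and the knockdown library lowest, whereas the control lay in between for GlyP and bmm.

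CCHa2, the nutrient-dependent peptide of the fat body and gut, was lower than in the control in both other libraries by less than the threshold. CCHa2 (FBgn0038147; chromosome 3R of dm6, 13389059 to 13395197, minus strand) had 3366 counts in the control, 2327 in the overexpression library and 2534 in the knockdown library, or 154 CPM (148 to 159), 100.2 CPM (96.2 to 104) and 108 CPM (104 to 112). The control stood above the others, which lay close together. The ratio to the control was 0.652 (0.619 to 0.688) in the overexpression library and 0.701 (0.666 to 0.739) in the knockdown library, and the ratio between these libraries was 0.930 (0.879 to 0.984). Gut endocrine genes, which mark the other source of CCHa2, were at 4.38, 13.0 and 3.32 CPM in sum over 9 genes in the same order of libraries. Of 6 measured, 3 were called higher and 0 lower in the overexpression library, beside 18.2% and 22.8% of all measured genes. Tk and Mip were not measured, with 3 and 2 counts in the overexpression library and 0 in both others. The part of gut endocrine genes in the CCHa2 values was not tested.
Its receptor gene CCHa2-R (FBgn0033058; chromosome 2R, 6050949 to 6068680, plus strand) had 2, 0 and 0 counts. At this depth a difference was not detectable, and no fold is given. The relatives CCHa1 and CCHa1-R were also at low counts, with 4, 4 and 29 for CCHa1 and 3, 1 and 1 for the receptor. CCHa1 was called higher in the knockdown library at 6.76 (2.37 to 26.4).

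upd2 was close to the limit of detection. It (FBgn0030904; chromosome X, 18240654 to 18243284, minus strand) had 0 counts in the control, 4 in the overexpression library and 0 in the knockdown library. The level in the overexpression library was 0.172 CPM (0.0469 to 0.441), an interval that includes the 0.137 CPM of the floor in the control, so that no difference was detectable. The other unpaired cytokines were as scarce, with 4, 3 and 4 counts for upd1 (listed as os) and 0, 2 and 0 for upd3.
The pathway that these cytokines activate was counted well. dome, their receptor, had 100, 235 and 161 counts, with a ratio of 2.22 (1.75 to 2.83) in the overexpression library, or 1.96 with TMM scaling. Socs36E, a target gene and inhibitor of the pathway, had 47, 368 and 69 counts, with ratios to the control of 7.39 (5.44 to 10.2) and 1.37 (0.931 to 2.03). The transcription factor gene Stat92E had 7049, 10671 and 8198 counts, a ratio of 1.43 (1.39 to 1.47) in the overexpression library that was not called. Socs36E was therefore called higher in a library in which the 3 ligand genes had 2 to 4 counts each.

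egr was lower than in the control in both other libraries, again by less than the threshold. egr (FBgn0033483; chromosome 2R, 10078366 to 10084210, plus strand) had 687 counts in the control, 415 in the overexpression library and 473 in the knockdown library, or 31.3 CPM (29.0 to 33.8), 17.9 CPM (16.2 to 19.7) and 20.1 CPM (18.3 to 22.003). The ratios to the control were 0.570 (0.503 to 0.645) and 0.641 (0.569 to 0.722). The value in the overexpression library came closest to the threshold among the values of the 8 signals that were not called, and it ranged from 0.502 to 0.570 over the scalings. The ratio of the overexpression library to the knockdown library was 0.889, with an interval of 0.777 to 1.02 that holds 1. The 4 small RNA genes inside egr lie on the opposite strand, and none overlaps an exon.
The tumor necrosis factor receptor genes were at low counts, with 16, 34 and 21 for wgn and 3, 4 and 1 for grnd, listed as CG10176. Of the JNK pathway, which both receptors activate, the kinase gene bsk had 198, 267 and 115 counts. The phosphatase gene puc, a JNK target that restrains the pathway, had 267, 580 and 255 counts, with a ratio of 2.05 (1.77 to 2.38) in the overexpression library that fell below 2 with each of the other 5 scalings. wgn, at 2.01 (1.08 to 3.89), was not called with 4 of the 5.

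daw lay nearest to the control among the measured genes. daw (FBgn0031461; chromosome 2L, 2805261 to 2812376, plus strand) had 2204 counts in the control, 2036 in the overexpression library and 2571 in the knockdown library, or 101 CPM (96.4 to 105), 87.7 CPM (83.9 to 91.5) and 109 CPM (105 to 114). The ratios to the control were 0.872 (0.820 to 0.926) and 1.09 (1.03 to 1.15), and 0.802 (0.756 to 0.850) between the overexpression library and the knockdown library. Over the scalings the ratio in the overexpression library ranged from 0.766 to 0.872 and that in the knockdown library from 1.02 to 1.11.
Its receptor babo, a type I activin receptor, had 467, 490 and 375 counts, and the transcription factor gene Smox, which babo activates, had 3960, 5304 and 4287. Neither was called in any comparison. Of the related ligands, mav had 31, 107 and 14 counts and was called higher in the overexpression library at 3.26 (2.17 to 5.03) and lower in the knockdown library at 0.421 (0.207 to 0.815), whereas Actbeta had 362, 455 and 277 and myo 556, 979 and 806, without a call. wit, a type II receptor, had 90, 151 and 35 counts and was called lower in the knockdown library at 0.362 (0.238 to 0.541).

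NLaz showed the widest range among the genes detected in every library. NLaz (FBgn0053126; chromosome 2L, 1359837 to 1361821, minus strand) had 6312 counts in the control, 1608 in the overexpression library and 9611 in the knockdown library. The levels were 288 CPM (281 to 295), 69.2 CPM (65.9 to 72.7) and 409 CPM (400.4 to 417), far apart in relation to their counting error. NLaz was called lower in the overexpression library, at a ratio of 0.240 (0.227 to 0.254), which is 4.16-fold lower, and 18.0% of the measured genes had a ratio as low or lower. In the knockdown library it was 1.42-fold (1.37 to 1.46) the control and not called. The direct ratio of the overexpression library to the knockdown library was 0.169 (0.161 to 0.179), a 5.90-fold difference.
Over the scalings these ratios ranged from 0.208 to 0.240, from 1.33 to 1.45 and from 0.155 to 0.174, and the calls were as stated in each. NLaz was therefore on opposite sides of the control in the overexpression and knockdown libraries. Among the other 4 genes measured against the control in both libraries, daw also had values on both sides, at 0.872 and 1.09, and AkhR, CCHa2 and egr were lower in both. Testis markers moved with NLaz in the overexpression library but not in the knockdown library. The summed level of 10 testis genes was 424 CPM in the control, 8.70 in the overexpression library and 445 in the knockdown library, 10 of 10 were called lower in the overexpression library, and c-cup, can, sa and aly were at 0 there. Their part in the NLaz values was not tested.
The values of the other lipocalin genes lay on the other side of the control in the overexpression library. Karl had 388 counts in the control, 993 in the overexpression library and 489 in the knockdown library, and was called higher at 2.42 (2.15 to 2.72). GLaz, the glial lipocalin, had 38, 79 and 69, a ratio of 1.96 (1.32 to 2.97) that was called with quantile normalization alone. puc, the JNK target given above, was likewise higher in the library in which NLaz was lower.

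**Figure D3:**
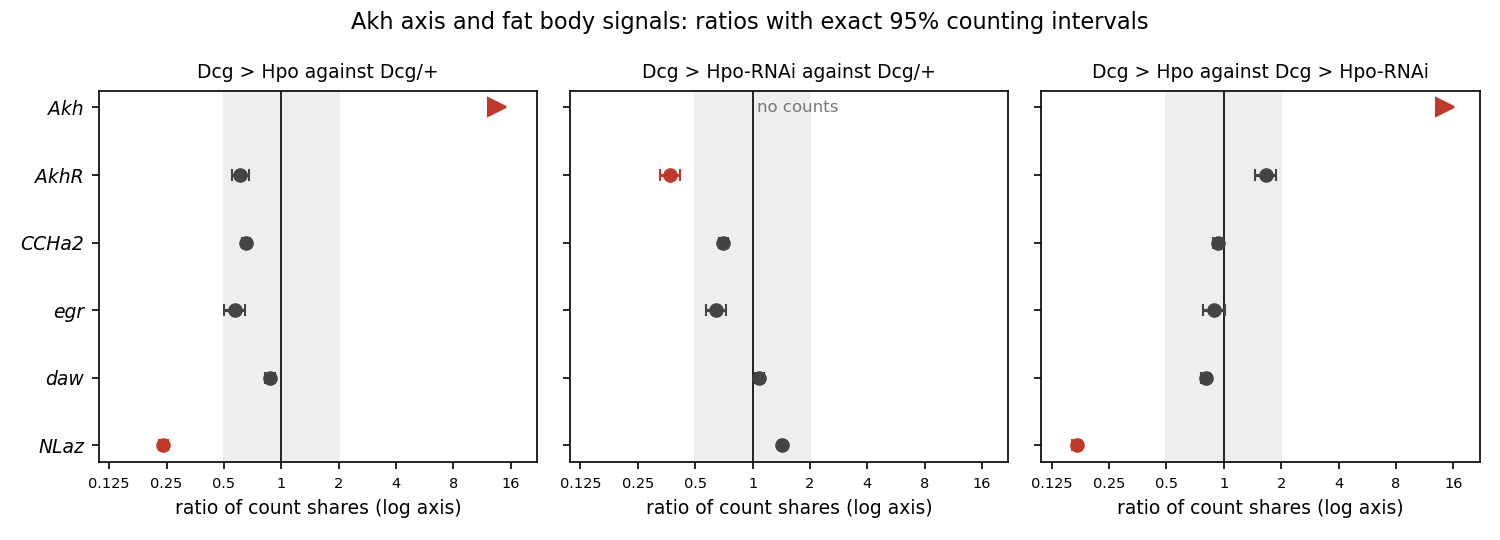
Ratios of count shares on a log axis for the genes measured in each comparison of 2 libraries, with exact 95% counting intervals. Red marks called genes, the grey band spans 0.5 to 2, and arrowheads are the values of Akh against the floor of 3 counts, since it had 0 counts in the second library (at least 13.5 and 14.5). NLaz lies at 0.240 in Dcg > Hpo and at 1.42 in Dcg > Hpo-RNAi against the control.

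Other signals of the fat body and its partner tissues were described by a list of 22 genes. In the overexpression library, 5 of 19 measured were called higher and 1 lower, beside 18.2% and 22.8% of all measured genes, and in the knockdown library 0 of 16 were called higher and 2 lower, beside 7.81% and 9.09%. The median log2 ratios were 0.42 and 0.20, beside 0.09 and 0.08 over all measured genes. Between the overexpression library and the knockdown library, 8 of 18 were called higher and 2 lower, beside 19.4% and 24.3%. The higher genes in the overexpression library were dpp, mav, Karl, Sdr, a secreted decoy of the insulin receptor with 0, 19 and 0 counts, and edin, an immune peptide gene with 0, 11 and 0. The lower gene was Ilp8, a relaxin-like peptide of growing discs, with 18, 0 and 8.
Ilp6, the insulin-like peptide that the fat body makes, had 6173 counts in the control, 3962 in the overexpression library and 10948 in the knockdown library. Its ratios to the control were 0.606 (0.582 to 0.630) and 1.65 (1.60 to 1.71), neither of them called, and the direct ratio of 0.367 (0.353 to 0.380) was called lower. Gbp1, a growth-blocking peptide by which the fat body signals amino acid supply to the brain, is listed as Gbp and had 2081, 1123 and 3760 counts. It was called lower in the overexpression library than in the knockdown library at 0.302 (0.283 to 0.323), and its ratio to the control in the overexpression library, 0.509 (0.473 to 0.548), was under 0.5 with each of the other 5 scalings. Gbp2, listed as CG11395, had 10345, 7962 and 13322. Ilp6, Gbp1 and Gbp2 therefore had the same order of libraries as NLaz.
Other signals had the reverse order. sun, which encodes stunted, a fat body peptide that promotes insulin release, had 1886, 2425 and 1090 counts, and spz, the ligand of Toll, had 685, 969 and 279. Both were called higher in the overexpression library than in the knockdown library, at 2.25 (2.10 to 2.42) and 3.52 (3.08 to 4.03). spz was also called lower in the knockdown library than in the control, at 0.379 (0.329 to 0.437).
Of the 18 receptors and transducers of these signals, 17 were measured, and 4 were called higher and 0 lower in the overexpression library, namely dome, Socs36E, wgn and puc, beside 18.2% and 22.8% of all measured genes (median log2 ratio 0.52, beside 0.09). With TMM scaling 1 of these calls remained, that of Socs36E. In the knockdown library 0 were called higher and 1 lower, wit, beside 7.81% and 9.09% (median 0.12, beside 0.08). Over all the pathway lists together, 13 of 65 measured genes had a higher call and 5 a lower call in the overexpression library. Over all measured genes the shares were 18.2% and 22.8%. With TMM scaling the lists had 9 higher and 7 lower calls, for which no share over all genes was computed. In the knockdown library, with library totals, 1 gene was called higher and 5 lower of 62, beside 7.81% and 9.09%.

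**Figure D4:**
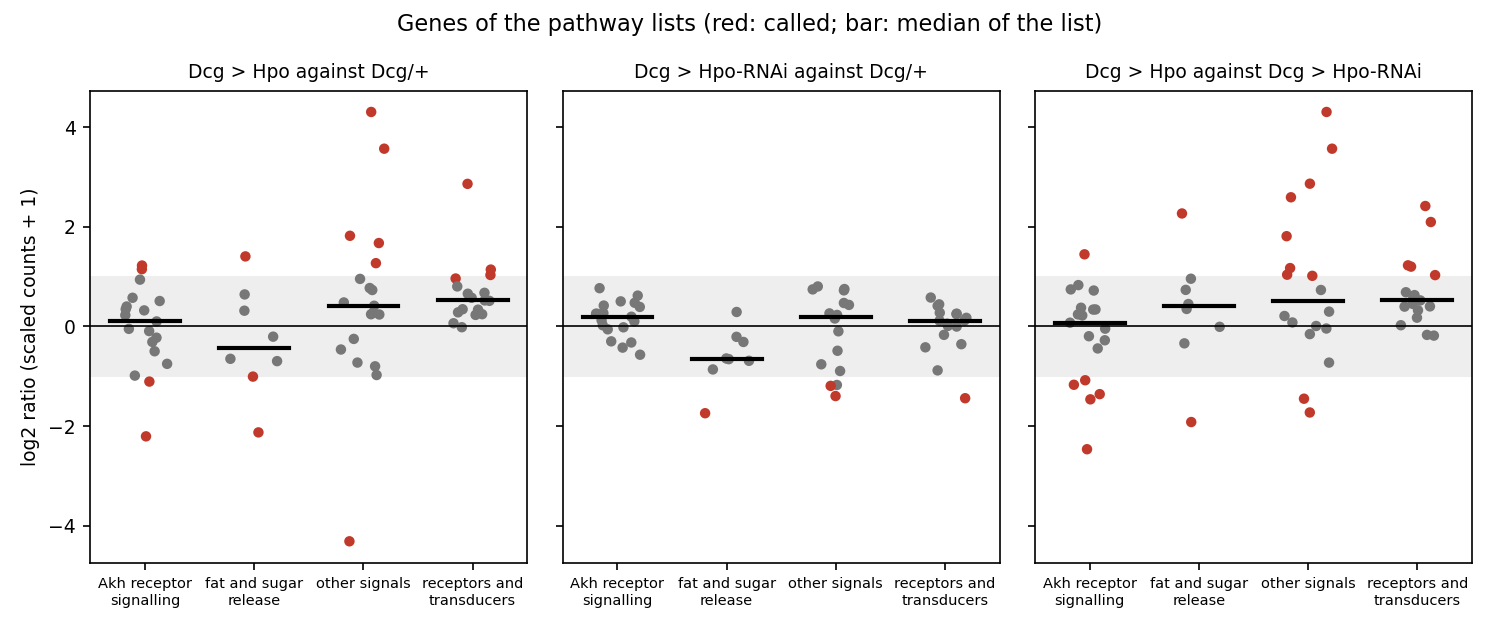
Log2 ratios (counts scaled to a common total, plus 1) of the measured genes of 4 lists in each comparison of 2 libraries. Each point is a gene, red points are called, black bars are list medians, and the grey band spans a 2-fold difference either way. The points of Dcg > Hpo-RNAi against Dcg/+ lie mostly within the band, with 0 higher and 4 lower calls in these lists.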

How the data were processed

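Total RNA of larval fat tissue was made into Lexogen QuantSeq libraries, which read the 3′ ends of mRNAs, which the company ebiogen analysed, with dm6 as the genome build per the labels. How reads were aligned and counted, and whether by strand, is not given in the sources used here. The authors deposited raw read counts for 16509 genes per library, and no further normalization was found in them. Each genotype had 1 library, so levels and ratios carry counting intervals only (scipy 1.17.1), where reads are not independent molecules.
The genes and lists described were chosen with earlier results of these data known. Genes were named by a rule: the 8 signals, hpo, list genes that were called or pair with a signal, defining markers of each cell type, and the 5 genes nearest to Akh and to AkhR. Some list genes without a call, among them bmm, Hsl, Lsd-1, Lsd-2, Tps1, Pka-C1, Stat92E and Syt1, were named beyond this rule. Of 187 list symbols, 14 were matched under another name through RefSeq synonyms (assembly Release 6), and 0 were missing. Coordinates and overlaps come from Ensembl release 115, which uses dm6 coordinates. Reads of 3′ ends limit comparison of levels between genes, so levels are compared between libraries. The search for nearest genes is an exception, since it matched levels between genes.
Alternatives were edgeR 4.0.16's TMM factors, DESeq2 1.42.0's median-of-ratios size factors, limma 3.58.1's quantile normalization, the summed fat body list, totals without other cell type lists, and other thresholds, minimums and pseudocounts. The ratio intervals and the calls were tested on simulated Poisson counts, the model that the intervals assume, without further spread between libraries. The scalings, the floor for 0 counts, the matching of symbols and the search for nearest genes were not tested in this way.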

Additional observations from a re-analysis of the deposited data

How the results depend on the processing

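AkhR and NLaz kept their calls under all 5 other scalings. So did Akh, but quantile normalization left genes with 0 counts at the ratio of library totals. It could therefore not change the Akh call. With a minimum of 50 counts Akh was not measured, leaving 0 genes called higher in the overexpression library against either library. A 1.5-fold threshold gave 4 lower genes in place of 1 in the overexpression library (AkhR, CCHa2 and egr added), 2 in the knockdown library (egr added), and 2 higher between the overexpression library and the knockdown library (AkhR added). A 3-fold threshold left 0 lower in the knockdown library. Over the pathway lists, 1.5-fold gave 20 higher and 12 lower in the overexpression library and 7 and 12 in the knockdown library. 3-fold gave 6 and 3 in the overexpression library, 2 lower in the knockdown library, and 10 and 4 between the overexpression library and the knockdown library. A minimum of 50 counts left 0 higher and 3 lower in the knockdown library. These numbers follow from how the thresholds and minimums are built. The shares over all genes at these settings were not computed, and nothing is read from the numbers. TMM scaling moved the median log2 ratio of all measured genes in the overexpression library from 0.09 to -0.08. Of 113 recomputed ratios of the 8 genes, 24 left the counting interval and 0 reversed. No paired analysis was possible because each genotype had 1 library. Depth limits CCHa2-R and upd2, for which no difference could be seen.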
